A study of Mus musculus with 35 samples.

Results

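Testes of PTU-exposed mice with 1 mutant copy of Akt1 were compared with testes of PTU-exposed wild type mice at postnatal day 25, on 3 arrays of each genotype among the 35 arrays of the series. The Het PTU mice are labelled Akt1 heterozygous (Akt1+/-) and the WT PTU mice Akt1 wildtype (Akt1+/+). All are C57BL6 males labelled as exposed to PTU (6-N-propylthiouracil), with 1 mouse per array according to the design text. The unexposed mice of the same age and genotypes, again with 3 arrays each, and the exposed homozygous mutants (Akt1-/-, 2 arrays) are used only to place the comparison. The dose and days of PTU and the part of Akt1 that the mutant allele lacks are not given in the sources used here. RNA of the whole testis was hybridised to an Affymetrix mouse array, and each gene was represented by its brightest probe set among those with 1 gene symbol. This gave 18194 genes, of which the 16305 above a low-signal limit of 4.76 in at least 2 of the 17 arrays of day 25 were tested. Values are log2 intensities, on which a difference of 1 is a factor of 2, and a difference is Het minus WT unless stated otherwise.

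Akt1 is 1 of the related Akt kinases, which PI3K signalling activates at the cell membrane and which act on growth, survival and metabolism, with mTOR among their downstream partners. PTU blocks thyroid hormone synthesis. In newborn rodents, thyroid hormone ends the division of Sertoli cells, the somatic cells that nurse the germ cells and seal the blood-testis barrier, and PTU delays this step. At about day 25 the first wave of mouse spermatogenesis has passed through meiosis, and spermatids begin to elongate. In whole testis, fewer cells of a type and less RNA per cell cannot be told apart.

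The labelled tissue carried the markers of testis in all 6 exposed arrays: the Sertoli marker Clu lay between 13.45 and 13.76, the spermatocyte marker Sycp3 between 12.83 and 13.37 and Ldhc, the lactate dehydrogenase of germ cells, between 14.55 and 14.64. Arrays within a group correlated at 0.992 to 0.996 (Het PTU) and 0.994 to 0.998 (WT PTU), and arrays across the genotypes at 0.989 to 0.996. Epididymal and fat transcripts varied from array to array. Spink8, an epididymal transcript, was at 5.86, 10.07 and 6.34 in Het PTU testes, against 5.99, 5.97 and 8.72 in WT PTU testes, while Lcn8, a second epididymal transcript, stayed between 4.94 and 5.13. Thus 1 array of each genotype stood out for Spink8. Car3, which is abundant in fat, was at 4.14, 8.32 and 5.23 in Het PTU testes, against 6.64, 9.22 and 10.76 in WT PTU testes. The mean of 12 poly-A control probe sets, which report transcripts added during sample preparation, was 7.78, 7.48 and 6.88 in Het PTU arrays, against 8.48, 8.10 and 8.69 in WT PTU arrays, with no overlap. The same control mean was also lower in unexposed Het arrays (6.55, 6.40 and 7.25) than in unexposed WT arrays (7.98, 7.88 and 8.20). The 3' minus 5' difference of the beta-actin control was 0.78, 0.63 and 0.75 in Het PTU arrays, against 0.59, 0.56 and 0.67 in WT PTU arrays. The part of these values in the differences below was examined only by the covariate and leave-out fits given with the counts.

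**Figure D1:**
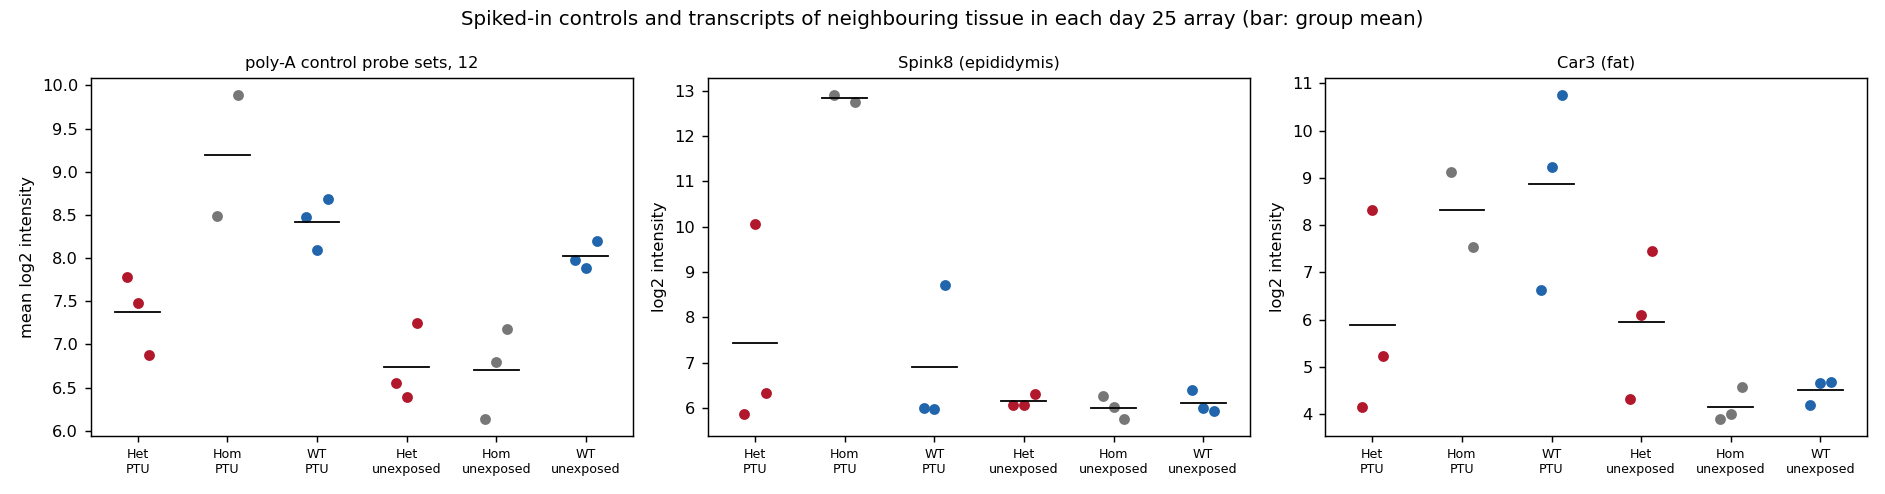
Mean log2 intensity of the 12 poly-A control probe sets (left), log2 intensity of Spink8 (middle) and of Car3 (right) in each array of day 25, by genotype and exposure. Points are arrays and bars are group means. The poly-A mean is at most 7.78 in Het PTU arrays and at least 8.10 in WT PTU arrays, and Spink8 exceeds 7 in 1 Het PTU array, 1 WT PTU array and both Hom PTU arrays.

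No Akt1 probe set passed the test in exposed heterozygotes. The brightest of 4 Akt1 probe sets was at 9.46, 9.52 and 9.45 in Het PTU testes, against 9.53, 9.50 and 9.44 in WT PTU testes. The groups overlapped, and the difference was -0.01 ± 0.08 (SE, n = 3 each; limma adjusted p = 0.972). The next brightest Akt1 probe set was at 8.78, 8.91 and 8.60 in Het PTU testes, against 8.99, 9.33 and 8.93 in WT PTU testes. All 3 Het PTU values lay below all 3 WT PTU values, but the difference of -0.32 ± 0.17 missed the threshold in the fit of every probe set (adjusted p = 0.449). In the exposed homozygous mutants, set against the same WT PTU arrays, this probe set differed by -0.80 ± 0.19 (adjusted p = 0.002). The brightest probe set differed there by only -0.0015 ± 0.09 (adjusted p = 0.990), so its level cannot check the Akt1 dose. In Het PTU testes the remaining pair of Akt1 probe sets differed by 0.15 and -0.02. Where each probe set lies relative to the deleted part is not known here, so these values check the genotype labels only in part. Akt2, a related kinase, was at 10.38, 10.52 and 10.44 in Het PTU testes, against 10.30, 10.21 and 10.17 in WT PTU testes. Its arrays did not overlap, and the difference of 0.22 ± 0.08 did not pass (adjusted p = 0.229). These values are of its brightest probe set. The other probe sets of Akt2 differed by -0.01 ± 0.18 and 0.08 ± 0.09, both with overlap.

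Among 16305 genes, 15 (0.092%) passed the threshold of an adjusted p of 0.05 in exposed Het against WT testes. Of these, 4 rose (0.0245% of the genes tested): Dync1h1, Plec, Brpf3 and Pi4ka. The other 11 fell (0.0675%): Agbl3, Lin9, Swi5, Rps27l, Timm9, Ccdc158, Chmp3, Eny2, Chchd1, Acer3 and Aasdhppt. The differences were small, 0.43 to 0.60 among genes that rose and -0.68 to -0.47 among genes that fell, with standard errors of 0.07 to 0.12. All 15 share the adjusted p of 0.0488, and the next gene stood at 0.0553. The 15 genes were chosen on these same arrays, which favours separate genotypes and narrow groups. Neither is further evidence for a gene. The count of 15 changed with the fit. It was 0 when either of Het PTU arrays 2 and 3 or any of the 3 WT PTU arrays was left out, 52 without Het PTU array 1, 0 with the poly-A control mean as a covariate, 1 without the 4 arrays with Spink8 above 7, 2330 with array weights and 165 without the exposed homozygous arrays. With quantile normalization 49 genes passed, 29 higher and 20 lower, so the balance of directions among called genes turned. None of the 15 genes reversed under any of the 17 alternative settings. At an unadjusted p under 0.05, 2208 genes (13.5%) differed, 1009 of them higher (6.19%) and 1199 lower (7.35%). Over all genes the median difference was 0.02, and the central 95% of the differences lay between -0.40 and 0.31.

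Both of the genes with the largest rises code for large proteins of the cytoskeleton. Dync1h1, the heavy chain of cytoplasmic dynein, the motor that moves cargo toward microtubule minus ends, was at 12.41, 12.69 and 12.62 in Het PTU testes, against 12.06, 11.996 and 11.87 in WT PTU testes. Its difference was 0.60 ± 0.10, and the lowest Het PTU array lay above the highest WT PTU array. Plec codes for plectin, which ties intermediate filaments to junctions and to other filaments. It was at 11.49, 11.73 and 11.64 in Het PTU testes, against 11.22, 11.06 and 10.98 in WT PTU testes, a difference of 0.53 ± 0.09 without overlap.

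Pi4ka and Brpf3 rose with less spread among the Het PTU arrays. Pi4ka, the kinase that makes phosphatidylinositol 4-phosphate, a precursor of the lipids that PI3K acts on, was at 11.56, 11.62 and 11.65 in Het PTU testes, against 11.22, 11.19 and 11.14 in WT PTU testes (difference 0.43 ± 0.07). Brpf3, a scaffold protein of a histone acetyltransferase complex, was at 9.79, 9.78 and 9.80 in Het PTU testes, against 9.47, 9.34 and 9.23 in WT PTU testes (difference 0.44 ± 0.08). In each gene the 3 Het PTU values lay closer together than the gap between the genotypes.

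Among the genes that fell, 3 act on chromosomes or transcription. Swi5, which acts in homologous recombination, was at 12.07, 11.95 and 11.92 in Het PTU testes, against 12.47, 12.69 and 12.68 in WT PTU testes, a difference of -0.63 ± 0.09. Lin9, a core subunit of the complexes that control cell-cycle genes, was at 7.93, 8.03 and 7.76 in Het PTU testes, against 8.51, 8.50 and 8.74 in WT PTU testes, a difference of -0.67 ± 0.11. Both were lower in every Het PTU array than in any WT PTU array. Eny2, a small subunit of the SAGA coactivator and of the TREX-2 mRNA export complex, was at 9.42, 9.28 and 9.28 in Het PTU testes, against 9.81, 9.84 and 9.83 in WT PTU testes, a difference of -0.50 ± 0.09. The 3 WT PTU values of Eny2 lay close together.

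Of the genes that fell, Timm9 and Chchd1 code for mitochondrial proteins. Timm9, a chaperone that carries membrane proteins across the mitochondrial intermembrane space, was at 7.85, 7.79 and 7.74 in Het PTU testes, against 8.44, 8.36 and 8.38 in WT PTU testes (difference -0.60 ± 0.10). Chchd1, a protein of the mitochondrial ribosome, was at 10.89, 10.55 and 10.69 in Het PTU testes, against 11.15, 11.19 and 11.28 in WT PTU testes (difference -0.50 ± 0.09). Its Het PTU array 1 lay nearest to the WT PTU arrays. Rps27l, a paralog of the ribosomal protein gene Rps27, was at 12.48, 12.22 and 12.37 in Het PTU testes, against 12.88, 13.07 and 12.95 in WT PTU testes (difference -0.61 ± 0.09). Probe sets of such near copies may also detect the other gene.

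The other 5 genes that fell have varied roles. Chmp3, an ESCRT-III subunit that acts in membrane fission, was at 9.33, 9.25 and 9.14 in Het PTU testes, against 9.78, 9.78 and 9.75 in WT PTU testes, a difference of -0.52 ± 0.09. Acer3, a ceramidase, was at 8.06, 8.03 and 7.94 in Het PTU testes, against 8.52, 8.53 and 8.45 in WT PTU testes, a difference of -0.49 ± 0.09. Aasdhppt, the enzyme that attaches the phosphopantetheine arm to acyl carrier proteins, was at 11.13, 10.99 and 11.10 in Het PTU testes, against 11.48, 11.55 and 11.59 in WT PTU testes, a difference of -0.47 ± 0.08. In all 3 genes the genotypes were separate, with narrow groups. Agbl3, a carboxypeptidase that removes glutamates from the tubulin tail, had the largest difference of the 15, -0.68 ± 0.12, and was at 8.43, 8.24 and 8.26 in Het PTU testes, against 8.83, 9.004 and 9.14 in WT PTU testes. Ccdc158, a coiled-coil gene, was at 8.55, 8.90 and 8.91 in Het PTU testes, against 9.35, 9.38 and 9.37 in WT PTU testes, a difference of -0.58 ± 0.10. Its Het PTU array 1 lay below the other Het PTU arrays.

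Other probe sets of the same genes mostly pointed the same way. Of 25 further probe sets tested for 12 of the 15 genes, 22 had the sign of the brightest one. All 5 further probe sets of Eny2 were lower, between -0.79 and -0.09. The further pair for Rps27l differed by -0.46 and -0.43. Agbl3 was less uniform: its second probe set, almost as bright over all arrays, differed by -0.02 ± 0.16, and another by 0.19 ± 0.21. For Dync1h1 and Chmp3 the second probe set differed by -0.01 and -0.05, so these calls rest on 1 probe set each. Swi5, Chchd1 and Ccdc158 had only 1 probe set each. The second probe set of Pi4ka differed by 0.11 ± 0.15, with overlap. In the fit of every probe set with 1 symbol 8 passed, among them the brightest probe sets of Rps27l and Swi5. When all 35896 probe sets above the limit were fitted, with or without a gene symbol, 2 passed. The 35896 included 5466 probe sets with no gene symbol, of which 0 passed and 670 reached an unadjusted p under 0.05.

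Promoter sequences are shown for 4 of the 15 genes, a pair that rose and a pair that fell, to set the start regions of genes that moved in opposite directions side by side. They run from 250 bases before to 50 after the start, 5' to 3' on the gene's strand, from RefSeq on GRCm38.p6. Capitals mark matches, on either strand, to the CCAAT box, the TATA box motif TATAAA, the GC box motif GGGCGG and the cyclic AMP response motif TGACGTCA, and neighbouring GC box matches may share letters. The Dync1h1 window is chr12:110601145-110601444 (plus strand), the Brpf3 window chr17:28800876-28801175 (plus strand), the Swi5 window chr2:32288020-32288319 (minus strand) and the Agbl3 window chr6:34780182-34780481 (plus strand).
Dync1h1: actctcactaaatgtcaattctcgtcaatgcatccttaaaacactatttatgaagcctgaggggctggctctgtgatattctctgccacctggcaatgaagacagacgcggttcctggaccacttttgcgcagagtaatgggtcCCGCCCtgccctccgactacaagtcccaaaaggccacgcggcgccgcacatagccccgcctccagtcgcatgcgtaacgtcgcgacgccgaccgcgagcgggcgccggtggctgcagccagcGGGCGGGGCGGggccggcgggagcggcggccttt
Brpf3: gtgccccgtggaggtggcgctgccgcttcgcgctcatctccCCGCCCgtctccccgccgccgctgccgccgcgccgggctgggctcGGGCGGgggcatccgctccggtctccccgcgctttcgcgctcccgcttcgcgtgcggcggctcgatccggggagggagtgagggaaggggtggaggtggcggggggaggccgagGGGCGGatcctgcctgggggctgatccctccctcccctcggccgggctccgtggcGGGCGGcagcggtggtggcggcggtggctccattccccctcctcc
Swi5: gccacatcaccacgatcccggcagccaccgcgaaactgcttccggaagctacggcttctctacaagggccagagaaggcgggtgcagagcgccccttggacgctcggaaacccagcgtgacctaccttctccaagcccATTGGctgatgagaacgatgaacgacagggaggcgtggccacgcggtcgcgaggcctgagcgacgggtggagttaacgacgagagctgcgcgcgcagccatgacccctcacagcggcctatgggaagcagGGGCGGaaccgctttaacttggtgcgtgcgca
Agbl3: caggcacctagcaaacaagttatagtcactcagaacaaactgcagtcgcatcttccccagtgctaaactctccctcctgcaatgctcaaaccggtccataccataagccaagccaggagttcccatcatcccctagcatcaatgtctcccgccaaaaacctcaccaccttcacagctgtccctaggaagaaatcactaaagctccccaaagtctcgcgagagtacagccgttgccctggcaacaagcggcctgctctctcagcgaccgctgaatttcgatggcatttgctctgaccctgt
RefSeq's table held 12 of the 15 genes, 7 of them with a single start. The Dync1h1 window holds 3 GGGCGG matches, the Brpf3 window 4 and the Swi5 window 1, with 1 CCAAT match, while Agbl3 holds none of the 4 motifs. GGGCGG was found in 4 of the 7 windows and in 57.9% of 10529 windows of tested genes with a single start. CCAAT was found in 1 of 7 and in 38.5%, TATAAA in 0 of 7 and in 8.8%, and TGACGTCA in 0 of 7 and in 2.8%. The GC share was 62.3% in the Dync1h1 window, 78.7% in Brpf3, 64.0% in Swi5 and 52.7% in Agbl3, against a median of 59.7% over those windows. These matches describe letters in a window and show nothing about the binding of a factor.

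**Figure D2:**
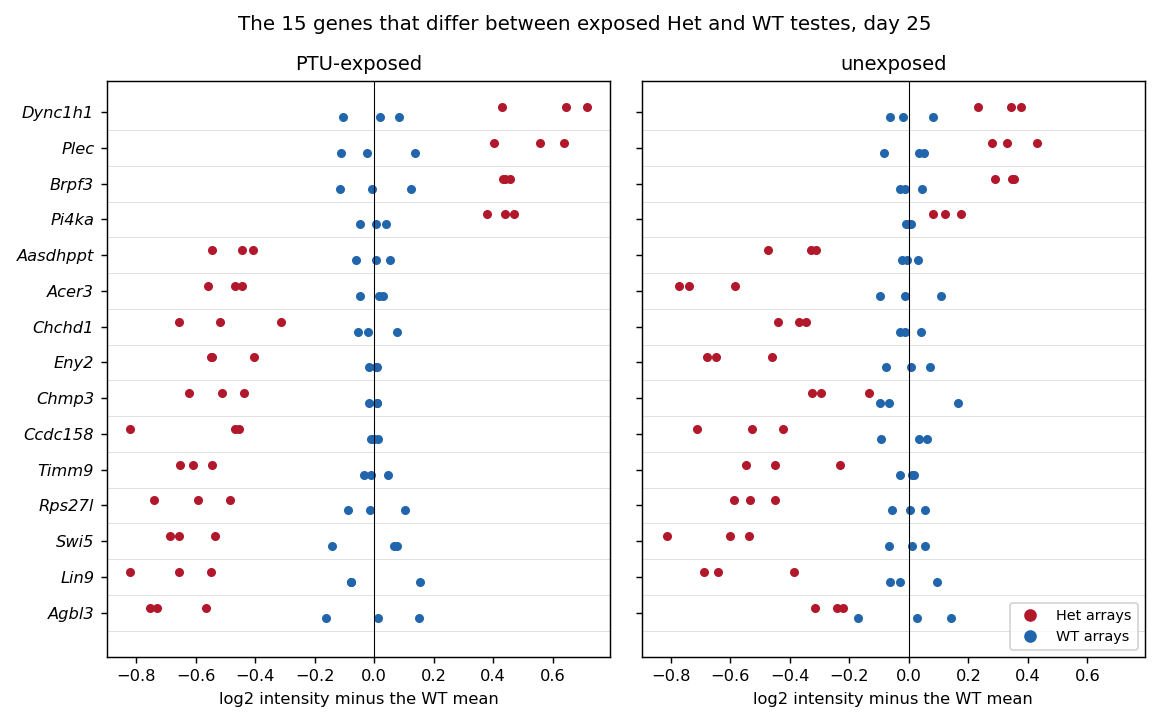
Log2 intensity of the 15 genes in each Het and WT array, minus the mean of the WT arrays of the same exposure, in PTU-exposed (left) and unexposed mice (right) of day 25. Each point is 1 array. The genes were chosen on the exposed difference, and there the 3 Het arrays lie on 1 side of the 3 WT arrays for every gene. The same holds in unexposed mice, where 12 of the 15 differences are smaller.

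The genotype difference was next set beside that of unexposed mice, from other animals of the same age. All 15 genes had the same sign there, against 62.4% of all genes tested, and 12 of the 15 passed the threshold, against 22.6% of all genes (8.32% higher, 14.3% lower). Their arrays did not overlap in 15 of 15 genes, against 43.6% of all genes. Both comparisons share 1 estimate of the spread per gene. The 15 genes were chosen with standard errors of 0.075 to 0.119, against a median of 0.119 over all genes. Passing and non-overlap in unexposed mice were thus favoured in advance, and all genes are not a like background for them. Swi5 differed by -0.65 (adjusted p = 0.00169) in unexposed mice, close to its exposed difference, and Acer3 by -0.70 (adjusted p = 0.00105), beyond its exposed one. Pi4ka, Agbl3 and Chmp3 did not pass in unexposed mice. Pi4ka differed by 0.12 (adjusted p = 0.249), Agbl3 by -0.26 (adjusted p = 0.131) and Chmp3 by -0.25 (adjusted p = 0.055) there. None of the 15 passed the test of the difference between exposed and unexposed mice, with a smallest adjusted p of 0.161. Over all genes this interaction test of limma called 0 (0%), with 2982 genes (18.3%) at an unadjusted p under 0.05 and a smallest adjusted p of 0.139. The count was 2003 with array weights and 945 without unexposed Het array 1. The numbers of genes past the threshold, 15 in exposed and 3680 in unexposed mice, are therefore not by themselves a tested difference between exposures. The median spread within a group was 0.10 in Het PTU and 0.09 in WT PTU arrays, against 0.13 in unexposed Het and 0.10 in unexposed WT arrays. With the poly-A control mean as a covariate the unexposed count was 13.

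Values of the same 15 genes in exposed homozygous mutants, which are set against the same WT PTU arrays, did not all follow the heterozygotes. Acer3 was 0.52 and Eny2 0.41 higher in Hom PTU than in WT PTU testes (adjusted p = 0.00028 and 0.0016), and Plec differed by -0.39 (adjusted p = 0.0028). Ccdc158 (-0.42), Timm9 (-0.36), Chmp3 (-0.35) and Aasdhppt (-0.27) also fell there, with the heterozygotes' sign. In that comparison 61.1% of all genes passed. The 2 Hom PTU arrays lie apart from all others, with Spink8 at 12.92 and 12.75.

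Genes of 27 lists of cell types and pathways were then read by their counts. In none of the 27 lists did a member pass the threshold in exposed Het against WT testes, against the 0.092% of all genes. Members are therefore described by whether the 3 Het PTU arrays all lay above or below the 3 WT PTU arrays. Members named below mostly have the smallest p of their list in these arrays, which favours separate genotypes. Of all genes, 15.5% lay above and 13.1% below without overlap. The list means of 21 lists overlapped between the genotypes, 2 lay above and 4 below in Het PTU testes, whereas 11 overlapped, 7 lay above and 9 below in unexposed Het testes.

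**Figure D3:**
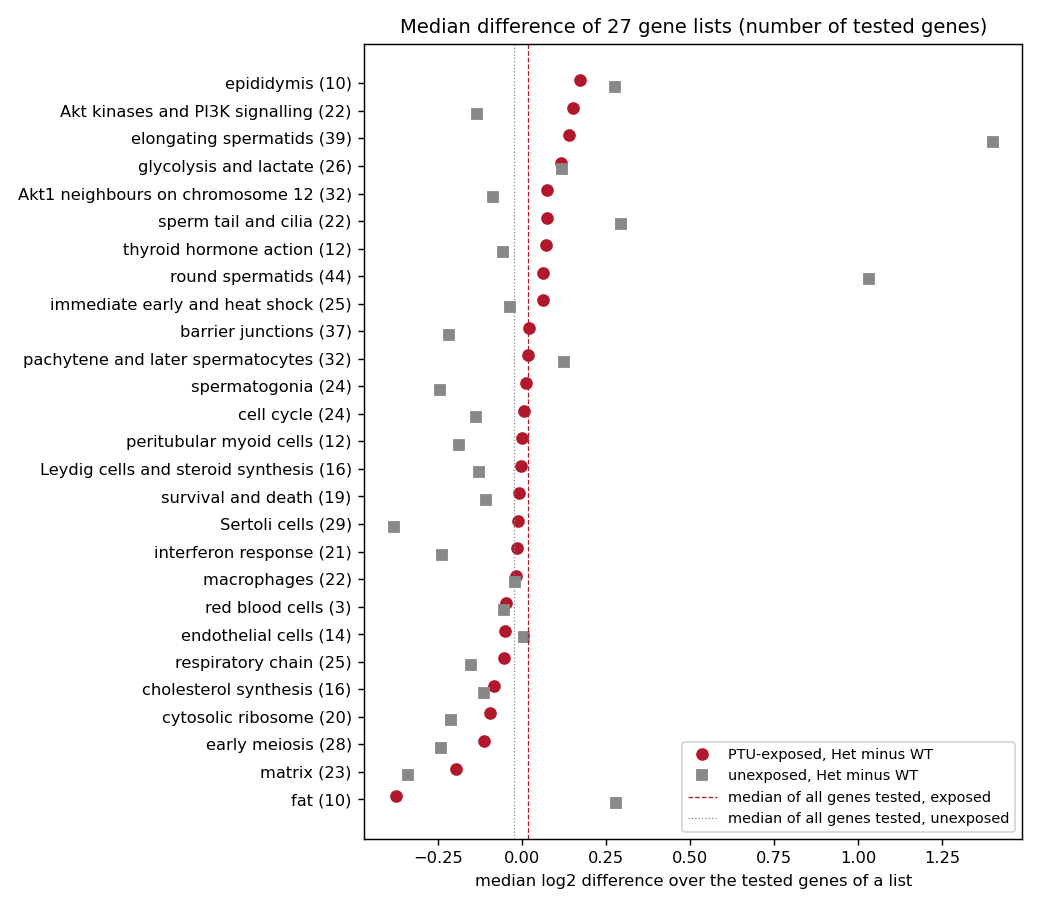
Median log2 difference, Het minus WT, over the tested genes of each of 27 lists in PTU-exposed (circles) and unexposed mice (squares) of day 25, with the number of tested genes in brackets and the medians of all genes as lines. The elongating and round spermatid lists stand at 0.14 and 0.06 in exposed mice and at 1.40 and 1.03 in unexposed mice.

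Kinases and regulators of the Akt pathway lay above more often than below in Het PTU testes. Of 22 tested genes, 7 lay above without overlap and 1 below, and the median difference was 0.15, against 0.02 for all genes. Mtor, the kinase of the mTOR complexes, was at 11.33, 11.39 and 11.45 in Het PTU testes, against 11.04, 10.94 and 10.91 in WT PTU testes, and its difference of 0.42 ± 0.09 did not pass (adjusted p = 0.0722). Rptor, the subunit that brings substrates to mTOR complex 1, differed by 0.32 ± 0.09 (adjusted p = 0.124) and Tsc2, which restrains that complex, by 0.26 ± 0.09 (adjusted p = 0.203). The 3 genes were each separate between the genotypes. The list mean was 9.09, 9.14 and 9.08 in Het PTU testes, against 9.02, 8.96 and 8.99 in WT PTU testes. In unexposed mice the median was -0.13, but Mtor was higher there too, by 0.27 (adjusted p = 0.0489). Rptor differed by 0.22 (adjusted p = 0.096) and Tsc2 by -0.12 (adjusted p = 0.36) in unexposed mice.

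Genes near Akt1 on chromosome 12 were listed by position. Of 32 tested, 12 lay above and 1 below, with a median of 0.07. Cdc42bpb, a kinase downstream of Cdc42, was at 9.77, 10.07 and 9.90 in Het PTU testes, against 9.60, 9.39 and 9.40 in WT PTU testes, a difference of 0.45 ± 0.13 that did not pass (adjusted p = 0.129). Tdrd9, a helicase of the piRNA pathway in germ cells, was at 11.40, 11.58 and 11.62 in Het PTU testes, against 11.19, 11.28 and 11.20 in WT PTU testes (difference 0.31 ± 0.10, adjusted p = 0.165). Neither gene overlapped between the exposed genotypes. In unexposed mice Cdc42bpb differed by -0.10 (adjusted p = 0.618), and the median of the list was -0.09. Dync1h1, which rose past the threshold, also lies in this part of chromosome 12 but was not in the list. It starts at base 110601395, against 111292972 for Cdc42bpb and 112653821 for Akt1. Whether this position bears on its difference was not tested.

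Genes of thyroid hormone action lay above about as often as all genes. Of 12 tested receptors, deiodinases and cofactors, 2 lay above and 0 below, and the median was 0.07. Over all genes 15.5% lay above and 13.1% below. Ncoa1, a coactivator of nuclear receptors, was at 9.13, 9.05 and 9.05 in Het PTU testes, against 8.86, 8.87 and 8.98 in WT PTU testes, a difference of 0.17 ± 0.09 (adjusted p = 0.41).

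Sertoli cell genes were close to level between the exposed genotypes. Of 29 tested, 0 lay above and 3 below, against 15.5% and 13.1% of all genes, with a median of -0.01. In unexposed mice the median was -0.38, and 16 of the 29 fell, against 14.3% of all genes. Amh, the hormone of immature Sertoli cells, was at 7.46, 7.49 and 7.28 in Het PTU testes, against 7.60, 7.92 and 7.66 in WT PTU testes, and Lgals1, which codes for galectin-1, was at 11.22, 11.45 and 11.26 in Het PTU testes, against 11.59, 11.73 and 11.76 in WT PTU testes. Both lay below without overlap in Het PTU testes, and neither passed (differences -0.32 ± 0.13 and -0.38 ± 0.11, adjusted p = 0.308 and 0.126). The mean of the Sertoli list was 10.23, 10.38 and 10.27 in Het PTU testes, against 10.33, 10.28 and 10.28 in WT PTU testes.

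Junction genes of the blood-testis barrier lay on both sides. Of 37 tested, 7 lay above and 3 below, against 15.5% and 13.1% of all genes, with a median of 0.02. Afdn, an adaptor of nectin junctions, differed by 0.29 ± 0.10 (adjusted p = 0.231), Actn4, an actin cross-linker, by 0.26 ± 0.09 (adjusted p = 0.237) and Ezr, which links actin to the membrane, by 0.34 ± 0.14 (adjusted p = 0.316). Cav1, the coat protein of caveolae, was at 9.44, 9.53 and 9.27 in Het PTU testes, against 9.46, 9.77 and 9.92 in WT PTU testes (difference -0.30 ± 0.11, adjusted p = 0.251), with overlap. In unexposed mice the median was -0.22, and 7 of the 37 genes fell there, near the 14.3% of all genes.

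Leydig cells, which make testosterone, had 16 tested genes with steroid synthesis, of which 0 lay above and 3 below. Akr1c14, a hydroxysteroid dehydrogenase of the androgen pathway, was at 6.50, 6.15 and 6.01 in Het PTU testes, against 6.90, 7.10 and 7.53 in WT PTU testes. Its Het PTU arrays all lay below the WT PTU arrays, and the difference of -0.96 ± 0.24 did not pass (adjusted p = 0.0995). Cyp17a1, the enzyme of androgen synthesis, was at 8.48, 11.22 and 12.12 in Het PTU testes, against 11.67, 10.86 and 8.89 in WT PTU testes, and the Het PTU range covered the WT PTU range. Of 16 cholesterol synthesis genes 3 lay below and 0 above, among them Hmgcs1 (-0.24 ± 0.11, adjusted p = 0.341) and Insig1 (-0.34 ± 0.17, adjusted p = 0.401).

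Matrix genes had a lower median than most lists, -0.20 over 23 genes, but 0 lay below without overlap on the 13.1% background. Col3a1, a fibrillar collagen, was at 10.98, 12.03 and 11.49 in Het PTU testes, against 11.60, 12.15 and 12.75 in WT PTU testes, and the highest WT PTU array was the one with the most Car3. Mgp, an inhibitor of calcification, was at 10.57, 10.96 and 10.67 in Het PTU testes, against 10.95, 11.47 and 11.52 in WT PTU testes, a difference of -0.58 ± 0.15 (adjusted p = 0.101). Of 22 macrophage genes 1 lay below and 0 above, and of 14 endothelial genes 1 above and 2 below. Vwf, a clotting factor of endothelial cells, differed by 0.47 ± 0.16 (adjusted p = 0.211) in exposed mice and by 0.85 (adjusted p = 0.00401) in unexposed mice. Of 12 peritubular myoid genes 1 lay below, Myl9, a myosin light chain (difference -0.33 ± 0.10, adjusted p = 0.144). Fat transcripts had the lowest median, -0.38 over 10 genes, with 0 above and 1 below, and were lowest in Het PTU arrays 1 and 3. Of 10 epididymal genes 1 lay above and 0 below, and of 3 red blood cell genes 1 lay below.

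Early meiotic genes were lower more often than higher. Of 28 tested, 9 lay below and 3 above without overlap, with a median of -0.11. Tex11, a crossover protein coded on the X chromosome, was at 8.56, 8.44 and 8.32 in Het PTU testes, against 8.87, 8.86 and 9.07 in WT PTU testes, a difference of -0.49 ± 0.10 (adjusted p = 0.0676). Hormad1, a protein of the chromosome axis, was at 11.37, 11.27 and 11.15 in Het PTU testes, against 11.55, 11.72 and 11.74 in WT PTU testes (difference -0.41 ± 0.12, adjusted p = 0.145). Both were lower in all 3 Het PTU arrays, as were Ccnb1ip1, a regulator of crossovers (-0.27 ± 0.09), and Meioc, which sustains the meiotic programme (-0.32 ± 0.11). In unexposed mice 10 of the 28 fell, against 14.3% of all genes. There Tex11 differed by -0.82 (adjusted p = 0.00108) and Hormad1 by -0.67 (adjusted p = 0.00314). The list mean was 10.29, 10.24 and 10.20 in Het PTU testes, against 10.31, 10.34 and 10.39 in WT PTU testes.

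Later germ cell genes overlapped between the exposed genotypes. Of 32 genes of pachytene and later spermatocytes, 5 lay above and 2 below, against 15.5% and 13.1% of all genes, with a median of 0.02. Among 44 round spermatid genes 2 lay above and 1 below (median 0.06), and among 39 elongating spermatid genes 3 lay above and 1 below (median 0.14). Prm1, the protamine that packs sperm DNA, was at 10.67, 7.74 and 10.62 in Het PTU testes, against 9.79, 8.84 and 7.92 in WT PTU testes. Het PTU array 2 was thus the lowest of the 6 while the other two were the highest. In unexposed mice Prm1 was at 12.70, 13.98 and 14.21 in Het testes, against 11.82, 8.90 and 8.97 in WT testes, with no overlap. There 26 of the 44 round and 26 of the 39 elongating spermatid genes rose, on a background of 8.32%. The median of the interaction over the elongating spermatid list was -1.34, and 0 of its members passed that test.

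**Figure D4:**
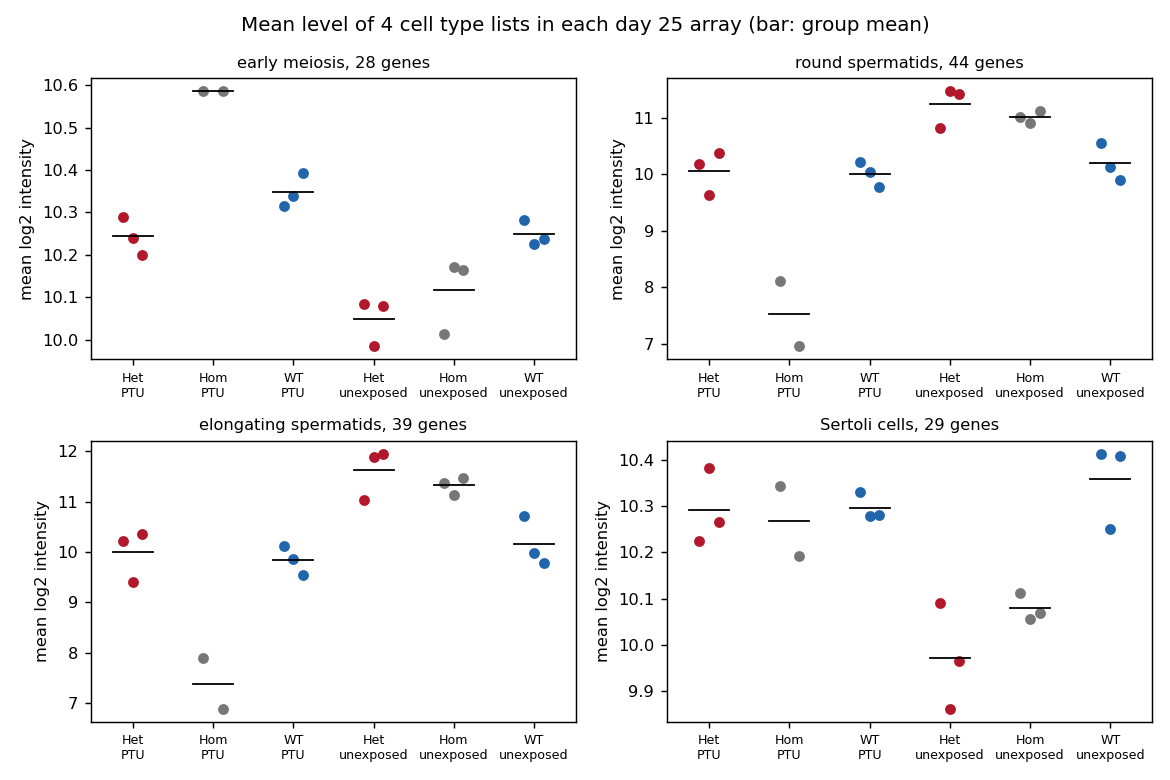
Mean log2 intensity of 4 cell type lists (early meiosis, round spermatids, elongating spermatids, Sertoli cells) in each array of day 25, by genotype and exposure. Points are arrays and bars are group means. Early meiosis is lower in all Het PTU arrays than in the WT PTU arrays, and the elongating spermatid means run from 9.41 to 10.36 in Het PTU and from 9.55 to 10.13 in WT PTU arrays.

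Axonemal motors were among the genes that lay above. Of 22 tested genes of the sperm tail and cilia, 7 lay above and 0 below, with a median of 0.07. Dnah1, a dynein heavy chain of the inner arms, was at 11.20, 11.38 and 11.36 in Het PTU testes, against 10.82, 10.88 and 10.59 in WT PTU testes, a difference of 0.55 ± 0.16 (adjusted p = 0.142). Dnah8 (0.50 ± 0.21) and Dnah2 (0.40 ± 0.17), further axonemal dynein heavy chains, and Ift172 (0.41 ± 0.16), a carrier of intraflagellar transport, also lay above without overlap and did not pass (adjusted p = 0.311, 0.313 and 0.265). In unexposed mice Dnah1 differed by 0.29 (adjusted p = 0.206) and Ift172 by 0.48 (adjusted p = 0.0401).

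Ribosomal and respiratory genes lay below more often than above. Of 20 cytosolic ribosomal protein genes 10 lay below and 0 above, with a median of -0.10. Rpl37 was at 10.41, 10.25 and 10.25 in Het PTU testes, against 10.71, 10.66 and 10.86 in WT PTU testes (difference -0.44 ± 0.12, adjusted p = 0.121), and Rpl7 differed by -0.27 ± 0.08 and Rps18 by -0.24 ± 0.08. Of 25 respiratory chain genes 7 lay below and 2 above, with a median of -0.06. Ndufs8, a subunit of complex I, was at 11.90, 11.85 and 11.89 in Het PTU testes, against 12.19, 12.24 and 12.26 in WT PTU testes (difference -0.35 ± 0.08, adjusted p = 0.0936). Ndufa1, another subunit of complex I, differed by -0.30 ± 0.07 (adjusted p = 0.0936), Cycs, the somatic cytochrome c, by -0.38 ± 0.12 and Cyct, its testis form, by -0.26 ± 0.07. In unexposed mice 8 of the 20 ribosomal and 8 of the 25 respiratory genes fell, against 14.3% of all genes. Ndufs8 differed there by -0.70 (adjusted p = 0.00105). The ribosomal list mean was 12.88, 12.86 and 12.83 in Het PTU testes, against 12.90, 12.95 and 13.06 in WT PTU testes. The poly-A control mean, given above, was lower in the same arrays, and its part in these lists was not tested.

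Of 24 cell cycle genes 5 lay below and 3 above, with a median of 0.01. The mean of that list was 10.158, 10.178 and 10.170 in Het PTU testes, against 10.201, 10.183 and 10.189 in WT PTU testes, lower in every Het PTU array by a narrow margin. Ccne2, a cyclin of S phase entry, was at 10.27, 10.09 and 10.10 in Het PTU testes, against 10.52, 10.60 and 10.85 in WT PTU testes (difference -0.50 ± 0.14, adjusted p = 0.118), and Cdk6 differed by 0.31 ± 0.13. Of 19 survival and death genes 3 lay below and 2 above, against 13.1% and 15.5% of all genes. Mcl1, which protects cells from death, differed by -0.28 ± 0.08 (adjusted p = 0.158) and Pmaip1, which promotes it, by -0.29 ± 0.14 (adjusted p = 0.401). Of 25 immediate early and heat shock genes 2 lay above. Egr1, a growth factor response gene, was at 8.55, 10.23 and 9.42 in Het PTU testes, against 8.46, 8.24 and 8.45 in WT PTU testes, and its Het PTU arrays spread over more than 1 log2 unit (difference 1.02 ± 0.50, adjusted p = 0.397). Of 26 glycolysis and lactate genes 7 lay above and 1 below, with a median of 0.11. Of 24 spermatogonial genes 2 lay above and 1 below, and of 21 interferon response genes 1 above and 2 below.

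Hk2, a hexokinase, lay on opposite sides of WT in exposed and unexposed Het testes, but the exposed difference did not pass. It was at 9.89, 10.14 and 9.97 in Het PTU testes, against 9.71, 9.68 and 9.70 in WT PTU testes, a difference of 0.30 ± 0.12 (adjusted p = 0.266). In unexposed mice it was at 9.62, 9.24 and 9.29 in Het testes, against 9.72, 9.80 and 10.02 in WT testes, a difference of -0.46 (adjusted p = 0.0116). The arrays were separate in both exposures, in opposite directions. The interaction test of limma, of whether the exposed and unexposed differences are unequal, had an adjusted p of 0.139.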

How the data were processed

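The authors deposited log2 intensities for 45101 probe sets in 17 arrays of day 25, summarised by RMA per the submitters' processing notes. The RMA version and genome build are not given in the sources used here, and no probe-level files were used. Of the probe sets, 34958 have 1 gene symbol, 932 several and 9211 none. The brightest probe set with 1 symbol stood for its gene, and genes above the 25th percentile (4.76) in at least 2 arrays were tested. In R 4.3.3 with limma 3.58.1, lmFit was fitted to 6 group means, followed by contrasts and eBayes, with Benjamini-Hochberg adjustment over all 16305 genes at 0.05. The procedure was tested on simulated data with 50 changed genes of each size. The simulated noise was drawn separately for each gene, without shifts shared by the genes of an array. The shares found may therefore be too high for these arrays. The exposed comparison found 6% of changes of 0.3, 52% of 0.5 and 90% of 1, with 9 false calls. The interaction test found 0%, 8% and 74% of the same sizes, so it would miss most small changes. The text names Akt genes, genes past the threshold, up to 4 members per list by p, cell type markers, and genes past the interaction test. Members and lists were chosen with earlier results of these data known. Each array is a separate mouse, and 3 arrays per group limit the precision: an exact permutation test could not go below 0.1. The day 15 arrays are of another type and were not used. Numbers shared by samples across genotypes were not treated as pairs in the main fit. Alternatives changed the filter, probe set choice, normalization, arrays in the fit and covariates.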

Additional observations from a re-analysis of the deposited data

Results flagged for a closer look

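Among the genes named by rule and refitted, and not over all genes tested, 3 were found for which the exposed and the unexposed Het arrays lay wholly on opposite sides of their WT arrays. Hk2 differed by 0.30 in exposed and by -0.46 in unexposed mice, an exposed minus unexposed change of 0.76 ± 0.16 (SE, limma adjusted p = 0.139). Cep170b, a neighbour of Akt1 on chromosome 12 that codes for a centrosomal protein, differed by 0.30 in exposed and -0.27 in unexposed mice, a change of 0.57 ± 0.19 (adjusted p = 0.156). Ncoa1, the nuclear receptor coactivator, differed by 0.17 in exposed and -0.24 in unexposed mice, a change of 0.41 ± 0.12 (adjusted p = 0.139). None of the 3 changes passed the interaction test over 16305 genes.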

How the results depend on the processing

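The main counts of genes past the threshold were 15 for exposed Het minus WT, 0 for the interaction and 3680 for unexposed Het minus WT. The exposed count was 0 with no filter, 63 with the filter at the 50th percentile, 8 with every probe set on its own, 49 with quantile normalization (29 higher and 20 lower, against 4 and 11), 0 with the 6 exposed arrays alone and 2330 with array weights. Leaving out single arrays gave 0 to 52 (52 without Het PTU array 1, with 14 of the 15 genes shared, and 0 without each of the other 5). After the group mean was subtracted from each gene, same-numbered exposed arrays correlated at 0.18, -0.07 and -0.47. These values gave no clear sign of pairing, which 3 arrays per group cannot settle. With the replicate number as a block 0 genes passed (2065 at an unadjusted p under 0.05). Alternatives added after seeing the data gave 165 without the Hom PTU arrays, 1 without the 4 arrays with Spink8 above 7, 0 with the poly-A control mean as a covariate and 160 with the beta-actin covariate. The interaction count was 2003 with array weights and 0 to 945 over single arrays left out (945 without unexposed Het array 1, 1 without Het PTU array 1). The unexposed count was 13 with the poly-A covariate and 1433 to 4047 over single arrays left out (1433 without WT array 3, 1503 without Het array 2, 2398 without Het array 3). The difference of the brightest Akt1 probe set, which did not change in exposed homozygous mutants, was -0.01. It turned to 0.0288 with quantile normalization, 0.0031 with the beta-actin covariate, 0.00054 without Het PTU array 3 and 0.0081 without WT PTU array 1. Over single arrays left out it was -0.0371 to 0.0081. Other alternatives of the 3 counts stayed within 1.5 times, and none of the other genes among the 85 refitted reversed over 17 settings. The cause of these changes was not tested.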

Other observations

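Further genes near the threshold were chosen after their values were seen. C1qtnf3, a secreted protein of the C1q and TNF related family, was at 5.45, 5.26 and 5.88 in Het PTU testes, against 6.88, 6.65 and 6.67 in WT PTU testes. The genotypes were separate, and the difference of -1.20 ± 0.25 had an adjusted p of 0.0675, with a difference of -0.04 in unexposed mice. Ifi27l2a, an interferon-inducible gene, was at 6.80, 7.22 and 7.72 in Het PTU testes, against 8.12, 8.49 and 8.81 in WT PTU testes (difference -1.23 ± 0.30, adjusted p = 0.0936). It differed by -0.95 in unexposed mice (adjusted p = 0.0356). Amhr2, the receptor of anti-Müllerian hormone, was at 13.27, 13.49 and 13.41 in Het PTU testes, against 12.94, 12.74 and 12.83 in WT PTU testes (difference 0.55 ± 0.11, adjusted p = 0.0641), and differed by -0.11 in unexposed mice. Its ligand gene Amh lay on the lower side in the same Het PTU arrays.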
